A study of Mus musculus with 4 samples.

Results

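Most of the genes described here encode the nuclear part of the machinery of oxidative phosphorylation. The complex I assembly factors whose names share the same stem are included. Also included, and counted with complex I, are 4 annotated copies of its genes. The gene annotation gives 1 of them, Ndufs6b, as a pseudogene and Ndufa11b as a transcribed pseudogene, though neither name has a pseudogene suffix. A gene was taken as a member when its symbol began with Nduf followed by a, b, c, s or v, with Uqcr, with Cox and a digit from 4 to 8, or with Atp5, or when it was Cyc1 or 1 of the 4 Sdh subunit genes. Of the 27179 genes listed, 101 matched. The 3 with a pseudogene suffix were dropped, and so were 5 with a mean below 0.5 FPKM, a level corrected for gene length and sequencing depth. This left 93 genes: 40 of complex I, 8 complex I assembly factors, 4 of complex II, 9 of complex III, 15 of complex IV and 17 of complex V. They lay on 19 chromosomes. The members were selected on their names and, among measured values, only on the mean FPKM over all 4 libraries. The expressed gene closest to it was Cox6a2 at 0.869 FPKM, and the closest gene left out was Ndufa4l2 at 0.162 FPKM.

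The libraries came from leukemia-initiating cells (LICs), which the study defines as Mac-1+/c-Kit+ cells in bone marrow and sorts for RT-PCR. For the libraries its methods name total RNA from tissue and describe no sort. The cells belong to a mouse model of acute myeloid leukemia. In this model Lin- fetal liver cells receive the MLL-AF9 fusion oncogene and YFP from an MSCV retrovirus and are transplanted into lethally irradiated C57BL/6 recipients, so all 4 libraries carry MLL-AF9. The WT group (2 libraries) came from wild type cells and the CD274-null group (2 libraries) from cells labelled CD274-/-, for a deletion of the checkpoint ligand gene CD274 (PD-L1). The labels call the cells LSC and give an age of 6 weeks. They do not say whether the libraries of a group came from separate mice, so p-values measure the spread between these libraries, which may be technical. The depth by which the FPKM had been scaled was recovered from the table, in units of 1e6 reads, as 11.6 in WT 1, 10.2 in WT 2, 8.84 in CD274-null 1 and 9.96 in CD274-null 2.

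The labels were checked before the results. Itgam (Mac-1), Hoxa9, Meis1 and Ptprc (CD45) stood at 35.6 to 174 FPKM in every library, and Kit was 6.59 FPKM in WT 1 and 16.2 to 19.5 FPKM in the others. Cd274 itself was 2.80 and 0.945 FPKM in WT and 1.43 and 2.29 FPKM in the libraries labelled CD274-null. Its level per gene thus did not separate the labels, so WT and CD274-null LICs stand throughout for the libraries labelled so, and which part of the gene had been deleted is not given in the sources used here. Immunoglobulin transcripts were higher in both CD274-null libraries (Igkc 8.64 and 7.98 FPKM against 214 and 189 FPKM), whereas the B cell surface gene Ms4a1 was at most 0.0976 FPKM in any library and 4 of the 8 B cell and plasma cell markers reached the level for testing. All 5 T cell markers stayed under 1 FPKM. The summed level of 9 neutrophil genes was 42109 and 8442 FPKM in WT and 17613 and 30597.5 FPKM in CD274-null, so the groups overlapped. Of the 9, Ly6g (4.27 and 0.485 FPKM against 8.10 and 19.1 FPKM) and Ltf (109 and 7.74 FPKM against 117 and 216 FPKM) were higher in both CD274-null libraries and Mmp9 (72.0 and 43.0 FPKM against 30.5 and 41.7 FPKM) was lower. The summed level of the 5 tested of 6 macrophage genes was 146 and 142 FPKM in WT and 88.9 and 105 FPKM in CD274-null. Of the 5, Vcam1 was lower (117 and 92.3 FPKM against 53.7 and 59.8 FPKM) and passed the candidate rule given below. Adgre1 overlapped (22.2 and 47.1 FPKM against 28.4 and 42.6 FPKM), and 3 of the 5 had a positive log2 fold change. The summed level of the 3 tested of 8 erythroid genes, all hemoglobins, was highest in WT 2 at 54.4 FPKM. It was 0 to 4.22 FPKM in the others, with Slc4a1 at 0 in all 4. The part that such cells play in the values below was not tested.

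Oxidative phosphorylation works in the inner mitochondrial membrane. Complex I takes electrons from NADH and complex II from succinate, complex III passes them to cytochrome c and complex IV to oxygen, and complex V, the ATP synthase, uses the proton gradient that complexes I, III and IV build. Most subunits are encoded in the nucleus, a small set is encoded by mitochondrial DNA (mtDNA), and complex II has only nuclear genes. Dependence on oxidative phosphorylation is a known trait of quiescent leukemic stem cells in AML.

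As a group the nuclear genes were expressed at the same level in WT and CD274-null LICs to within the spread of the libraries. Their summed level was 8659 FPKM in WT 1 and 9395 FPKM in WT 2 against 9623 FPKM in CD274-null 1 and 8381 FPKM in CD274-null 2. The 2 CD274-null libraries thus held the highest and the lowest sum, with both WT libraries between them. The means were 9027 ± 520.4 FPKM (SD, n = 2) in WT and 9002 ± 878 FPKM (SD, n = 2) in CD274-null LICs. With 2 libraries against 2, an exact permutation test cannot give a two-sided p below 0.3333, so single sums were not tested.

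Gene by gene, limma on log2(FPKM + 0.5) over 13230 genes found no member that passed the candidate rule of an unadjusted p under 0.01 with a fold change above 1.5, in either direction. Over all tested genes 3.63% passed it, and 2.39% passed it with a higher level in CD274-null LICs. No member reached an adjusted p under 0.05, as 0.0756% of all tested genes did. A single member, the assembly factor gene Ndufaf2, had an unadjusted p under 0.05, where 13.7% of all tested genes did in either direction and 8.04% with a higher level in CD274-null LICs. The median log2 fold change of CD274-null over WT was 0.05 over the 93 members and 0.01 over all tested genes. The log2 fold change was positive for 53 members and negative for 40, and it was positive for 6757 of all 13230 tested genes.

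The intervals show how large a difference was still possible. For 81 of the 93 members the 95% interval of the fold change lay within a 2-fold change in either direction, against 40.7% of all tested genes. It lay within a 1.5-fold change for 10 members, against 3.14% of all tested genes. In 21 members both CD274-null values lay above both WT values and in 13 both lay below, shares of 22.6% and 14.0%, and the same was so for 25.6% and 21.8% of all tested genes.

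**Figure D1:**
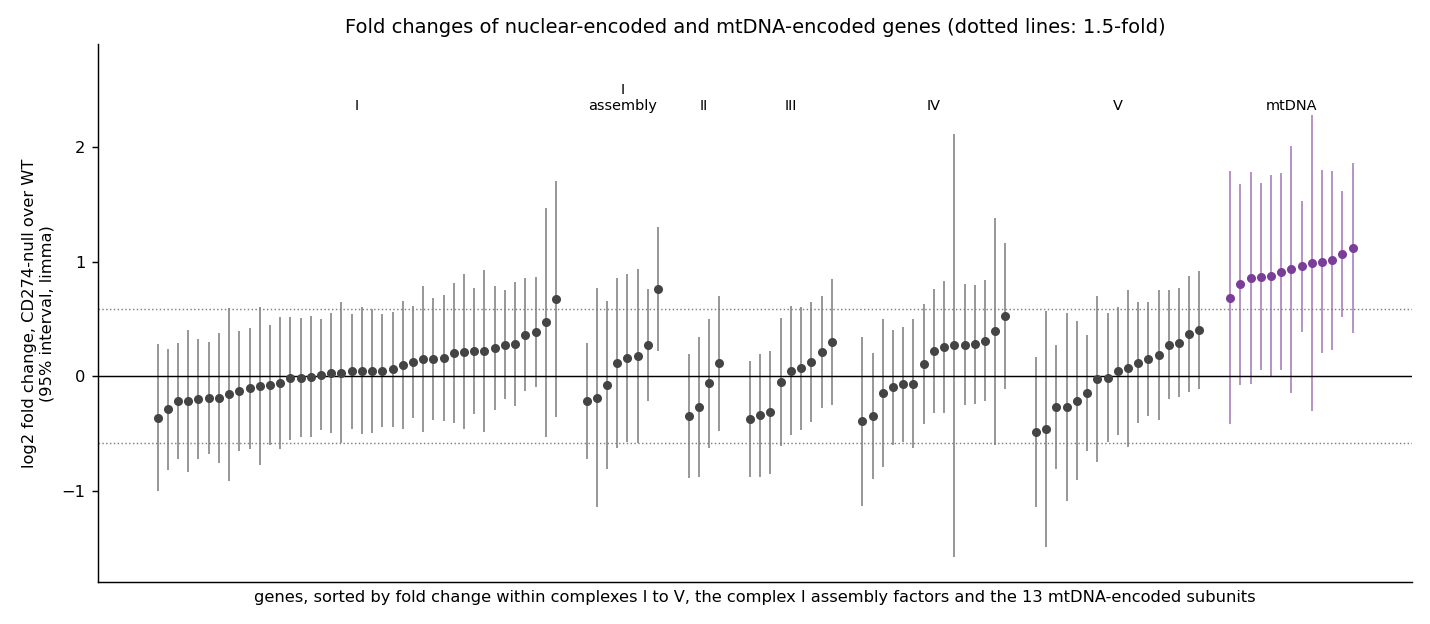
Log2 fold change of CD274-null over WT LICs (points) with its 95% interval from limma (lines), sorted within complexes I to V, the complex I assembly factors and the 13 mtDNA-encoded subunits (purple), with dotted lines at 1.5-fold. The nuclear genes lie from -0.48 (Atp5b) to 0.76 (Ndufaf2) around 0, and the 13 mtDNA-encoded subunits lie from 0.69 to 1.12.

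Libraries of the same genotype lay on opposite sides. Measured as each gene's deviation from its own mean over 4 libraries on the log2 scale, the median member stood at -0.06 in WT 1, 0.01 in WT 2, 0.14 in CD274-null 1 and -0.10 in CD274-null 2. CD274-null 1 held the highest value of 50 members and the lowest of 1. CD274-null 2 held the highest value of 5 members and the lowest of 45. The medians over all tested genes were 0.08 in CD274-null 1 and -0.06 in CD274-null 2. Without CD274-null 1 the members' median log2 fold change was -0.08, and without CD274-null 2 it was 0.14, so its sign rested on single libraries.

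**Figure D2:**
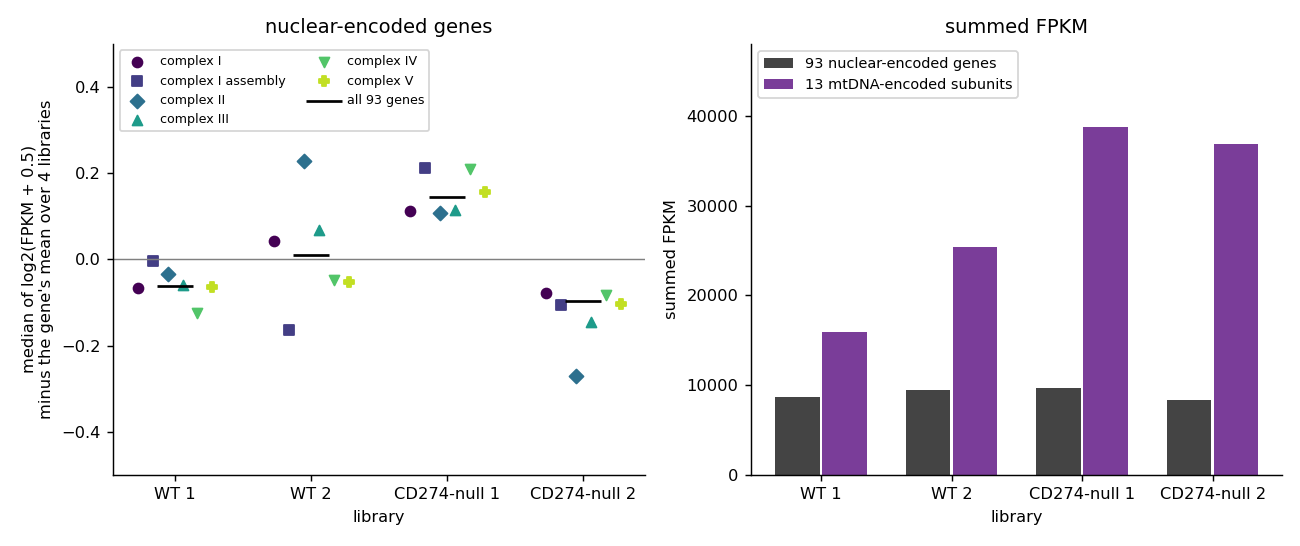
Left, the median over each complex of log2(FPKM + 0.5) minus the gene's mean over the 4 libraries, by library, with a black bar for all 93 genes. Right, summed FPKM of the 93 nuclear-encoded genes and of the 13 mtDNA-encoded subunits in each library. The nuclear genes stand highest in CD274-null 1 and lowest in CD274-null 2, while the mtDNA-encoded sum is higher in both CD274-null libraries than in both WT libraries.

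The members were well expressed next to other genes. Their mean levels had a median of 74.9 FPKM and quartiles of 31.6 and 136 FPKM, and 35 stood at 100 FPKM or more. The median member was at 130 FPKM in complex IV, 117 FPKM in complex V, 98.4 FPKM in complex III, 78.6 FPKM in complex II and 61.01 FPKM in complex I. The 8 assembly factors, which act on complex I without staying in it, had a median of 9.42 FPKM. The highest gene was Atp5b, the catalytic beta subunit of the ATP synthase, at 549 FPKM, followed by the complex IV subunit gene Cox4i1 at 441 FPKM and the alpha subunit gene Atp5a1 at 334 FPKM. The median tested gene stood at 12.03 FPKM. Reads per member and library ran from 0 to 13929 with a median of 663.

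**Figure D3:**
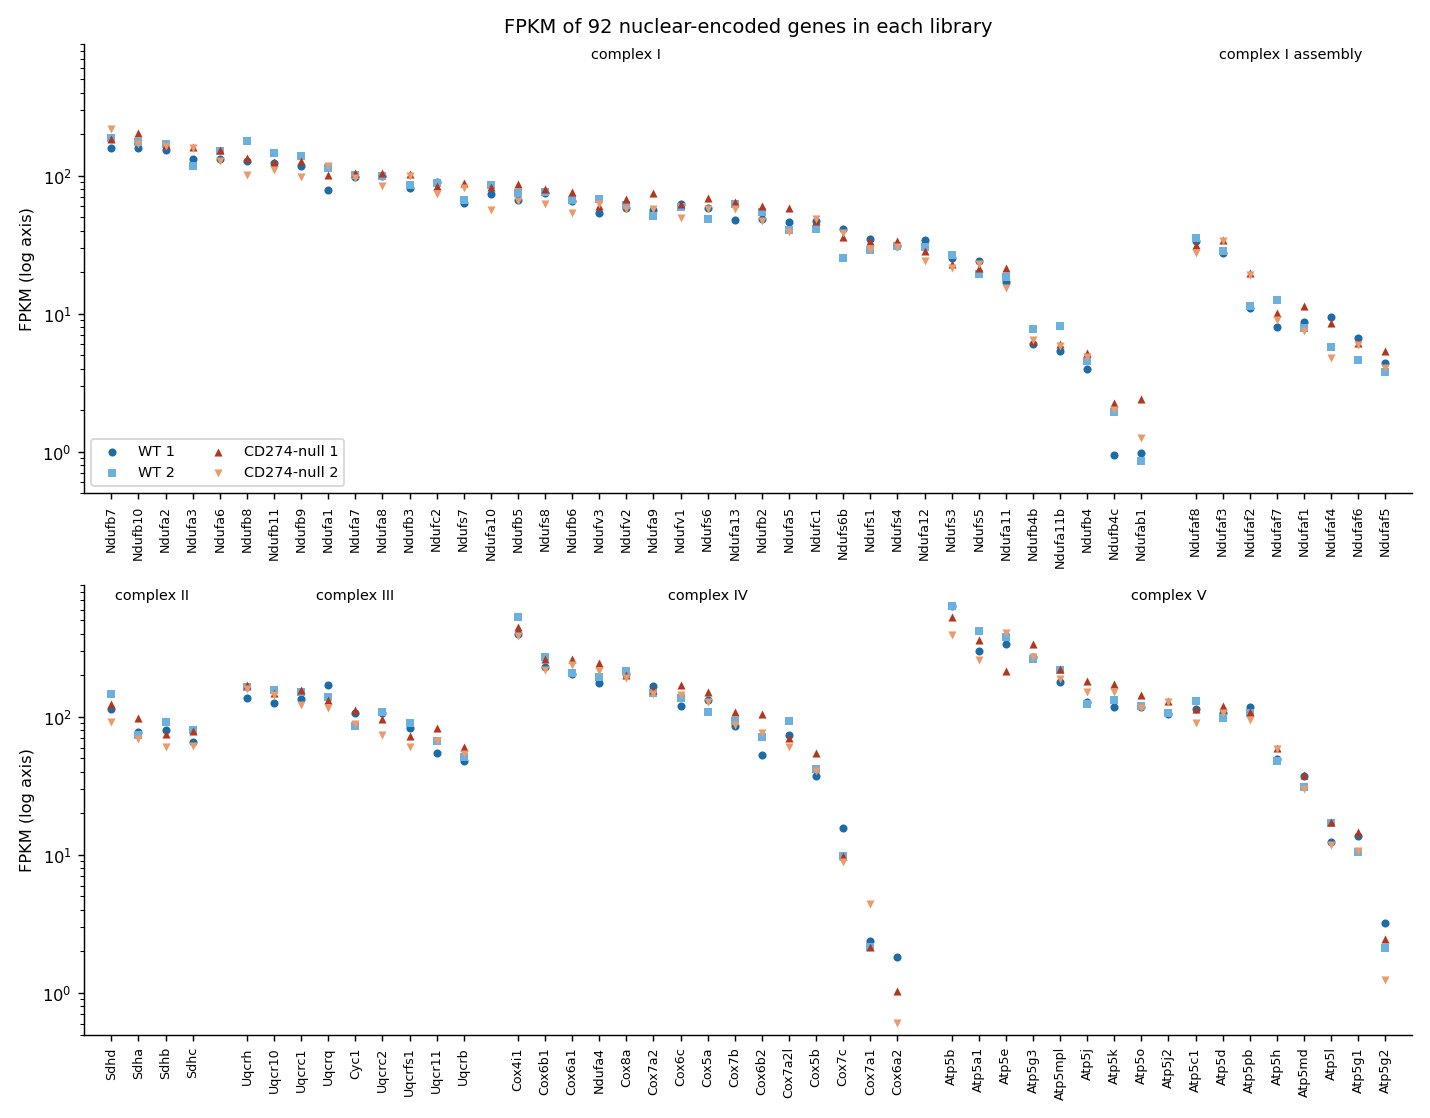
FPKM (log axis) of 92 of the 93 genes in WT 1, WT 2, CD274-null 1 and CD274-null 2, sorted by mean level within complex I and its assembly factors (upper panel) and complexes II to V (lower panel). The 4 libraries lie close together for most genes, the assembly factors and a few subunits lie far below the rest, and the value of 0 for Cox6a2 in WT 2 cannot be drawn on this axis.

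Some of the lowest levels belonged to genes whose sequence is also held by other loci, and the sequences show how closely. Ndufb4 (chr16:37647602-37654368) and its annotated copy Ndufb4c (chr15:73809449-73809933) hold the same 390 bases, the whole coding sequence of Ndufb4, so a read within them cannot be assigned to either. Ndufs6 (chr13:73319876-73328482) and Ndufs6b (chr7:81161273-81161746) differ at 12 of 285 aligned bases. The c-ring genes Atp5g1 (chr11:96072793-96075694), Atp5g2 (chr15:102662868-102671047) and Atp5g3 (chr2:73908447-73912464) are known to encode the same mature protein with different leaders. Their last 75 codons before the stop nevertheless differ at 34 bases between Atp5g1 and Atp5g2, at 45 between Atp5g1 and Atp5g3 and at 48 between Atp5g2 and Atp5g3. The stretches below hold 60 bases each, coding except in the copies Ndufs6b and Ndufb4c, where GENCODE marks no coding part, and were taken from GENCODE transcripts on GRCm38 and written 5′ to 3′, with capitals where the genes of a set differ.
Ndufs6: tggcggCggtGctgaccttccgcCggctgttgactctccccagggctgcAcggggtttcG
Ndufs6b: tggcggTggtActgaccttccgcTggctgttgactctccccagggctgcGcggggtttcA
Ndufb4: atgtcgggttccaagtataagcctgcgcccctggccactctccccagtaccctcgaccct
Ndufb4c: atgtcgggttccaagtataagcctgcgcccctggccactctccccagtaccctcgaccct
Atp5g1: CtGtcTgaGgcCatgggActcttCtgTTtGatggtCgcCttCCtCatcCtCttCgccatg
Atp5g2: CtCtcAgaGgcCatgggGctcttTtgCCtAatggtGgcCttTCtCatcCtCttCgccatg
Atp5g3: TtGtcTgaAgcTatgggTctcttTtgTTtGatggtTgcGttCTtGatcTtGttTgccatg

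To measure this over all members, each 50-base stretch of a member's coding sequence, the length of the reads, was aligned to the GENCODE transcripts, pseudogenes included, and counted as shared when it matched another locus with at most 2 mismatches. For the copies Ndufs6b, Ndufb4c and Ndufa11b the whole transcript was used. Of the 92 members with a transcript there, 35 shared no stretch, 30 shared 50% or more and 13 shared all of them. The 13 were Atp5g1, Atp5g2, Atp5l, Atp5md, Cox5b, Cox7c, Ndufab1, Ndufb4, Ndufb4c, Ndufs3, Ndufs5, Uqcr11 and Uqcrb. Their mean levels ran from 1.37 to 68.0 FPKM, below the median member in each case. Of the 13 members under 10 FPKM, 4 were fully shared (Ndufb4, Ndufb4c, Ndufab1 and Atp5g2), 5 were assembly factors, and the others were the annotated copies Ndufb4b and Ndufa11b and the muscle isoforms Cox6a2 and Cox7a1. Across the 92 members the Spearman correlation of the shared percentage with the mean level was -0.18, as a description over genes that share the 4 libraries. How reads that match several loci were counted is not given in the sources used here, so levels of the fully shared genes are uncertain. Leaving out the members with 50% or more shared left the median log2 fold change at 0.04 over 62 genes.

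**Figure D4:**
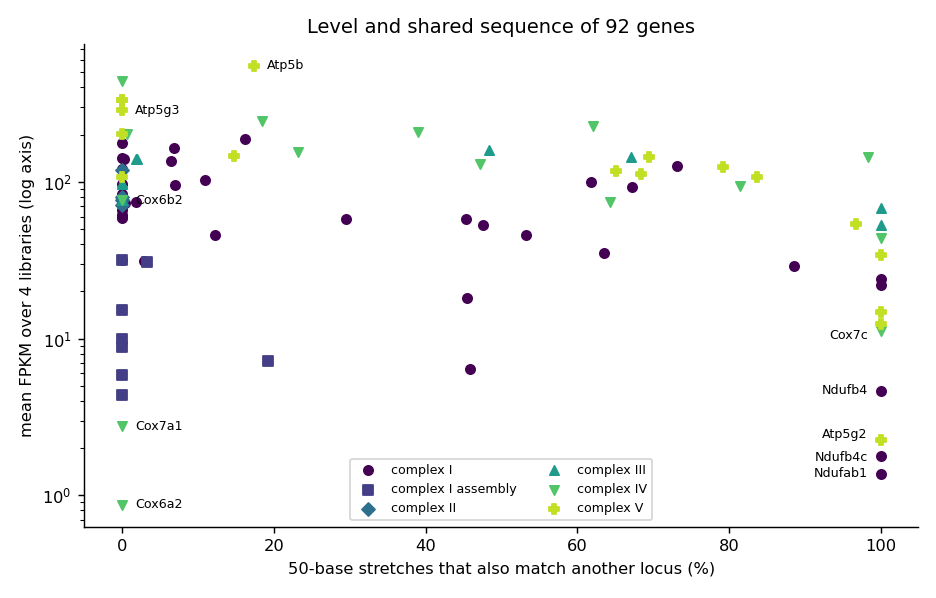
Mean FPKM over 4 libraries (log axis) of 92 genes against the percentage of their 50-base stretches that also match another locus, with markers by complex. The 13 genes at 100% lie between 1.37 and 68.0 FPKM, and the highest genes, Atp5b, Cox4i1 and Atp5a1, lie at 17.4% or 0%.

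In complex I, the 7 core subunits that carry the flavin and the iron-sulfur clusters or form the quinone site had log2 fold changes that ran from -0.22 (Ndufs3) to 0.39 (Ndufs7), and their lowest adjusted p from limma was 0.44. Ndufs7, the iron-sulfur subunit next to the quinone site, was 63.1 and 66.7 FPKM in WT and 89.1 and 80.9 FPKM in CD274-null LICs. Its groups did not overlap, at a log2 fold change of 0.39 ± 0.20 (SE) and an unadjusted p of 0.098 from limma. Ndufv1, which binds FMN and oxidizes NADH, had 62.1 and 59.5 FPKM in WT and 62.4 and 49.4 FPKM in CD274-null LICs.

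The 29 accessory subunits of complex I had a median log2 fold change of 0.05. It was positive for 20 of them and for 6757 of all 13230 tested genes. Ndufb7 was the highest of complex I with 159 and 187 FPKM in WT and 185 and 219 FPKM in CD274-null LICs. Its groups overlapped, at a log2 fold change of 0.22 ± 0.23 (SE). Ndufb8, the most negative, had 128 and 177 FPKM in WT and 135 and 102 FPKM in CD274-null LICs, a log2 fold change of -0.36 ± 0.26 (SE). The most positive was Ndufab1, the mitochondrial acyl carrier protein, with 0.972 and 0.859 FPKM in WT and 2.40 and 1.26 FPKM in CD274-null LICs. These values rested on 9, 7, 17 and 10 reads and on a fully shared sequence, and the log2 fold change of 0.67 had an interval from -0.35 to 1.70. Complex I as a whole had summed levels of 2686 and 2915 FPKM in WT and 3059 and 2700.3 FPKM in CD274-null LICs.

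Among the assembly factors, Ndufaf2 stood out. This protein, also called mimitin, binds a late intermediate of complex I in place of a subunit that joins afterwards. It was 11.1 and 11.4 FPKM in WT LICs and 19.6 and 19.2 FPKM in CD274-null LICs, from 87, 79, 118 and 130 reads. The groups did not overlap and the libraries within a group differed little. The log2 fold change was 0.76 ± 0.22 (SE), a 1.70-fold higher level with an interval from 0.22 to 1.31 on the log2 scale. The unadjusted p was 0.014 and the adjusted p 0.29 by limma, so the difference did not pass the threshold over all genes. Leaving out a single library kept the log2 fold change between 0.74 and 0.78 and gave unadjusted p-values up to 0.082 by limma. With a GC correction it was 0.83 at an unadjusted p of 0.0080, which passes the candidate rule. None of its coding stretches was shared with another locus.

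The other 7 assembly factors had log2 fold changes from -0.22 to 0.27. Ndufaf8, the highest by level, was 33.4 and 35.2 FPKM in WT and 31.6 and 27.4 FPKM in CD274-null LICs, with both CD274-null values below both WT values by small margins. Ndufaf3 went the opposite way, with 27.5 and 28.4 FPKM in WT and 34.3 and 33.5 FPKM in CD274-null LICs. Their log2 fold changes were -0.22 ± 0.21 (SE) and 0.27 ± 0.20 (SE). Neither had an unadjusted p under 0.05.

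Complex II, succinate dehydrogenase, links the citrate cycle to the respiratory chain. Its flavoprotein gene Sdha had 78.3 and 74.3 FPKM in WT and 98.8 and 68.9 FPKM in CD274-null LICs. The iron-sulfur subunit gene Sdhb had 79.8 and 92.6 FPKM in WT and 75.6 and 60.2 FPKM in CD274-null LICs. The membrane anchor gene Sdhc had 65.8 and 80.4 FPKM in WT and 78.7 and 61.7 FPKM in CD274-null LICs. Of the 4 genes only Sdhb had groups that did not overlap, lower in CD274-null LICs at a log2 fold change of -0.35 ± 0.22 (SE) and an unadjusted p of 0.17 from limma. The other anchor gene, Sdhd, had 114 and 147 FPKM in WT and 124 and 92.5 FPKM in CD274-null LICs, a log2 fold change of -0.27 ± 0.25 (SE). The median over the 4 genes was -0.17. It moved to 0.03 without CD274-null 2 and to -0.36 without CD274-null 1, so it rested on single libraries.

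In complex III, the 2 core proteins, the Rieske iron-sulfur protein and cytochrome c1 form the larger part, and 5 small subunits surround them. Uqcrfs1, the Rieske protein that takes electrons from ubiquinol, was 83.6 and 89.6 FPKM in WT and 73.2 and 61.03 FPKM in CD274-null LICs, a log2 fold change of -0.37 ± 0.21 (SE). The core protein gene Uqcrc2 was 106 and 109 FPKM in WT and 96.3 and 74.2 FPKM in CD274-null LICs, at -0.34 ± 0.22 (SE). For both, the CD274-null values lay below the WT values. The small subunit gene Uqcr11 lay on the opposite side with 54.9 and 66.9 FPKM in WT and 83.3 and 67.0 FPKM in CD274-null LICs, at 0.30 ± 0.23 (SE), though its whole coding sequence is shared with other loci. The small subunit gene Uqcrq lay lower, with 171 and 139 FPKM in WT and 133 and 115 FPKM in CD274-null LICs, at -0.32 ± 0.22 (SE). Uqcrh, the hinge protein and highest of the complex, had 138 and 166 FPKM in WT and 171 and 159 FPKM in CD274-null LICs, which overlap. Cyc1, which passes electrons on to cytochrome c, had 107 and 86.6 FPKM in WT and 112 and 88.4 FPKM in CD274-null LICs. All 9 unadjusted p-values were above 0.05.

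Complex IV, cytochrome c oxidase, has subunits that exist as tissue isoforms, and the LICs expressed the common set. Cox4i1 was at 441 FPKM on average, whereas Cox4i2, the lung and hypoxia isoform, was listed at 0 in 3 libraries and at 0.238 FPKM in WT 1. Cox6a1 averaged 229 FPKM against 0.869 FPKM for the muscle form Cox6a2, Cox7a2 averaged 155 FPKM against 2.77 FPKM for the muscle form Cox7a1, and Cox8a averaged 202 FPKM while Cox8b was listed at 0 in 3 libraries. The testis forms Cox7b2 and Cox8c were listed at 0 in all 4. Ndufa4, first purified with complex I and now counted to complex IV, averaged 208 FPKM, and its hypoxia-induced relative Ndufa4l2 averaged 0.162 FPKM on at most 3 reads in a library.

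The exception among the isoforms was Cox6b2, known as the testis form of subunit 6B. It was 53.2 and 71.7 FPKM in WT and 105 and 76.0 FPKM in CD274-null LICs, while the common form Cox6b1 was 230 and 272 FPKM in WT and 262 and 219 FPKM in CD274-null LICs. Cox6b1 thus made up 81.2% and 79.2% of the summed pair in WT LICs against 71.4% and 74.2% in those labelled CD274-null. Cox6b2 (chr7:4751792-4753094) shares no coding stretch with another locus, and its best ungapped match with Cox6b1 covers 76 coding bases, of which 16 differ. Its log2 fold change was 0.53 ± 0.26 (SE), the largest of complex IV, with an unadjusted p of 0.090 from limma, and it was 0.30 without CD274-null 1 and 0.31 without WT 1. Cox6b1 itself had -0.06 ± 0.23 (SE).

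Among the other subunits of complex IV, Cox6a1 was 206 and 207 FPKM in WT and 265 and 237 FPKM in CD274-null LICs. Ndufa4 was 176 and 195 FPKM in WT and 246 and 215 FPKM in CD274-null LICs. In both genes the groups did not overlap, at log2 fold changes of 0.28 ± 0.21 (SE) and 0.31 ± 0.22 (SE). Cox7a2l, a relative of subunit 7A, lay lower, with 73.4 and 94.0 FPKM in WT and 70.4 and 60.5 FPKM in CD274-null LICs. The most negative was Cox7c at -0.39 ± 0.30 (SE), whose 15.8 and 9.84 FPKM in WT and 9.82 and 8.95 FPKM in CD274-null LICs set WT 1 apart from the other 3 libraries. Cox8a, with 203 and 215 FPKM in WT and 200 and 191 FPKM in CD274-null LICs, had groups that did not overlap but a log2 fold change of -0.10. The median over the 15 genes was 0.22, the highest of the complexes. It was 0.11 with a pseudocount of 1, where Cox6a2, on 14, 0, 6 and 4 reads, went from 0.27 to 0.10 and crossed the median, and it ran from 0.03 to 0.26 with single libraries left out.

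Complex V consists of the catalytic F1 head, the stalks and the membrane part Fo. The log2 fold change was negative for 4 of the 5 F1 genes and positive for 3 of the 4 stalk genes. It was also positive for 3 of the 5 Fo genes outside the c ring. This split was singled out after the values were seen. Over all 13230 tested genes, 6757 were positive and 6473 negative. Atp5b had 641 and 634 FPKM in WT and 531 and 390 FPKM in CD274-null LICs, the most negative log2 fold change of all members at -0.48 ± 0.27 (SE) and an unadjusted p of 0.12 from limma. Atp5a1 had 302 and 416 FPKM in WT and 358 and 260 FPKM in CD274-null LICs, which overlap. Atp5c1, the rotor shaft, had 114 and 130 FPKM in WT and 114 and 89.9 FPKM in CD274-null LICs, at -0.27 ± 0.22 (SE). Summed over the 5 F1 genes, the level was 1498 and 1655 FPKM in WT and 1339 and 1249 FPKM in CD274-null LICs. The 4 stalk genes summed to 414 and 398 FPKM in WT and 495 and 421 FPKM in CD274-null LICs, and the 5 Fo genes outside the c ring to 453 and 506 FPKM in WT and 580.0 and 510.3 FPKM in CD274-null LICs.

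The most positive gene of complex V was Atp5j, which encodes coupling factor 6 of the peripheral stalk. It was 127 and 124 FPKM in WT and 182 and 152 FPKM in CD274-null LICs, at a log2 fold change of 0.40 ± 0.21 (SE) and an unadjusted p of 0.10 from limma. Atp5k, subunit e of the membrane part, was 119 and 132 FPKM in WT and 172 and 152 FPKM in CD274-null LICs. The groups of both genes did not overlap. The epsilon subunit gene Atp5e set 1 library apart, with 335 and 377 FPKM in WT and 216 and 403 FPKM in CD274-null LICs. Within the c ring, Atp5g3 supplied most of the transcripts at 285 FPKM on average, against 12.4 FPKM for Atp5g1 and 2.26 FPKM for Atp5g2. The latter pair are fully shared with other loci and Atp5g3 is not, so this order is uncertain. All 3 had overlapping groups.

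Gene length moved with these directions. Over the 93 members the Spearman correlation between the gene length implied by the FPKM values and the log2 fold change was -0.28, and over all tested genes it was -0.10, a description across genes that share the 4 libraries. The 48 members of up to 679 bases had a median log2 fold change of 0.12 and the 45 longer ones of -0.01. The F1 genes had a median length of 1801 bases and the Fo genes outside the c ring of 365 bases. With the log2 values corrected for that implied length within each library, the median over complex V went from 0.04 to -0.04 and that over complex IV from 0.22 to 0.18. What length contributed to the split within complexes was otherwise not tested. Transcript GC content correlated with the log2 fold change at -0.03 over 90 members and at 0.26 over 11435 tested genes, also as a description.

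The 13 genes encoded by mtDNA supply core parts of complexes I, III, IV and V, and here their summed level was 15867 and 25328 FPKM in WT LICs and 38765 and 36911 FPKM in CD274-null LICs. The ratio of that sum to the sum over the nuclear members was 1.83 and 2.70 in WT LICs against 4.03 and 4.40 in those labelled CD274-null. All 13 had both CD274-null values above both WT values, as 25.6% of all tested genes did, and their median log2 fold change was 0.93. ND3 and ND4L of complex I passed the candidate rule, a share of 15.4% against 3.63% of all tested genes, and 7 of the 13 had an unadjusted p under 0.05 against 13.7%. No adjusted p was under 0.05, the lowest being 0.25 by limma, and the candidates among the 13 numbered 0 without WT 1 or without CD274-null 1 and 1 without WT 2 or without CD274-null 2.

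ND3 was 67.8 and 68.9 FPKM in WT and 166 and 125 FPKM in CD274-null LICs, a log2 fold change of 1.07 ± 0.23 (SE). ND4L was 112 and 147 FPKM in WT and 262 and 239 FPKM in CD274-null LICs, at 0.96 ± 0.24 (SE). COX1, the catalytic subunit of complex IV and the highest of the 13, was 4471 and 7947 FPKM in WT and 12266 and 11393 FPKM in CD274-null LICs, and with WT 1 far below WT 2 its unadjusted p was 0.11. CYTB, the mtDNA-encoded subunit of complex III, was 2834 and 4315 FPKM in WT and 6431 and 6935 FPKM in CD274-null LICs. WT 1 lay below WT 2 in all 13, by little in ND3, and without WT 1 the median log2 fold change was 0.63 and without WT 2 it was 1.24.

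The mitochondrial ribosomal RNAs had overlapping groups. mt-Rnr1 was 632 and 1485 FPKM in WT and 1169 and 1373 FPKM in CD274-null LICs, and mt-Rnr2 was 594 and 1160.0 FPKM in WT and 641 and 602 FPKM in CD274-null LICs. Their log2 fold changes were 0.39 ± 0.45 (SE) and -0.42 ± 0.37 (SE), and whether these differ from those of the subunits was not tested. Reads of all mtDNA genes made up 2.01% and 3.30% of the depth in WT LICs against 4.77% and 4.59% in those labelled CD274-null. Rescaling every library to its nuclear reads alone gave a median log2 fold change of 0.08 over the members and 0.04 over all tested genes. How the RNA quality of a library or the cells in it bear on the mtDNA share was not tested.

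Other genes of the pathway, taken from lists by role, gave few calls as well. Of 41 tested assembly factors beyond the Nduf names, none passed the candidate rule. Cox19 and Coa4, both for complex IV, and Timmdc1, for complex I, were higher and Pet117 was lower at an unadjusted p under 0.05, which 13.7% of all tested genes reached. Cox19 was 16.5 and 16.3 FPKM in WT and 28.2 and 24.4 FPKM in CD274-null LICs. The median over the list was 0.09, and 18 of the 41 had both CD274-null values above both WT values, where 25.6% of all tested genes did. Of 19 genes of the citrate cycle and pyruvate oxidation, 15 had a negative log2 fold change, as did 6473 of all 13230 tested genes, with a median of -0.12. In this list Dld, the shared E3 subunit of the 2-oxo acid dehydrogenases, was lower at an unadjusted p of 0.038 by limma, with 93.7 and 70.6 FPKM in WT and 58.6 and 45.8 FPKM in CD274-null LICs. Of 13 genes for electron carriers and the export of ATP none had an unadjusted p under 0.05. Of 13 genes that shape the inner membrane, the fusion GTPase gene Opa1 was lower, with 23.1 and 22.8 FPKM in WT and 14.4 and 9.86 FPKM in CD274-null LICs and an unadjusted p of 0.012 by limma.

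Among 19 tested regulators of mitochondrial genes, Polg was the only one to pass the candidate rule, as 3.63% of all tested genes did, and 5 of the 19 had an unadjusted p under 0.05, as 13.7% of all tested genes did. This catalytic subunit of the mtDNA polymerase was 22.0 and 18.9 FPKM in WT and 38.8 and 36.4 FPKM in CD274-null LICs, at a log2 fold change of 0.87 ± 0.21 (SE) and an adjusted p of 0.27 by limma. It no longer passed the rule with a GC correction, without a variance trend, without moderation, or without WT 2, CD274-null 1 or CD274-null 2. Its accessory subunit gene Polg2, with 10.9 and 10.2 FPKM in WT and 18.2 and 43.7 FPKM in CD274-null LICs, and the helicase gene Twnk, with 7.34 and 6.90 FPKM in WT and 11.1 and 11.7 FPKM in CD274-null LICs, were also higher at an unadjusted p under 0.05. Tfam, which packages mtDNA, and the RNA polymerase gene Polrmt did not reach that. Both subunit genes of the ETS factor GABP, a known activator of respiratory chain genes, were lower at an unadjusted p under 0.05. Gabpa was 27.2 and 27.4 FPKM in WT and 18.9 and 14.5 FPKM in CD274-null LICs, at -0.71 ± 0.24 (SE). Gabpb1 was 24.0 and 22.7 FPKM in WT and 16.7 and 15.3 FPKM in CD274-null LICs, at -0.53 ± 0.22 (SE). Their adjusted p-values were 0.31 and 0.36 by limma.

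The promoters of the members were searched, on both strands, for the motifs of 3 factors known to act on respiratory chain genes, and for the TATA box. The windows run from 250 bases before to 50 bases after the start site in RefSeq (GRCm38.p6), with the first start site listed for each gene, and 75 of the 93 members had one. CCGGAAG, the core bound by GABPA and other ETS factors, was in 24.0% of the members, in 19.3% of the tested genes and in 9.12% of all promoters of this length. GCGCATGC, for NRF1, was in 16%, 5.63% and 2.80% of them. AAGATGGC, for YY1, was in 13.3%, 5.03% and 2.88% of them, and TATAAA in 8%, 7.14% and 14.2%. The last 3 letters of CCGGAAG are the first 3 of AAGATGGC, so both can be matched at overlapping positions, and Ndufaf8 was the one member with both. The 18 members with CCGGAAG had a median log2 fold change of -0.04 and those without it of 0.07. None of the 18 had an unadjusted p under 0.05. Over all tested genes with a window, these medians were -0.005 and 0.016. Members with and without the NRF1 motif had medians of -0.02 and 0.07. For YY1 they were 0.18 and 0.05, and for TATAAA 0.12 and 0.06. A match is a description of the letters and not evidence of binding.

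The promoters of 4 members show the kinds of window found. Ndufaf2 had the largest log2 fold change, Atp5j and Sdhb were among the most positive and most negative subunit genes, and Ndufs7 was the most positive core subunit of complex I. They lie, on GRCm38.p6, at chr13:108158576-108158875 on the minus strand (Ndufaf2), chr16:84835576-84835875 on the minus strand (Atp5j), chr4:140961021-140961320 on the plus strand (Sdhb) and chr10:80249199-80249498 on the plus strand (Ndufs7). Capitals mark GCATGCGC, the NRF1 motif on the opposite strand, and CCGGAAG in Sdhb and AAGATGGC in Ndufs7. The Ndufs7 window also holds TATAAA, left in lower case. The windows of Ndufaf2 and Atp5j hold none of the 3 motifs.
Ndufaf2: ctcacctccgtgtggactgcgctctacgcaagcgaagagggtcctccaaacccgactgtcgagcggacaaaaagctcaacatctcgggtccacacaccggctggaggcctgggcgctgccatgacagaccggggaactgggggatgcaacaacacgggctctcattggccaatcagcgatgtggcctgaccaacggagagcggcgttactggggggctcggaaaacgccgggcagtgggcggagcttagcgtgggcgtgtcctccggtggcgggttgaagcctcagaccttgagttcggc
Atp5j: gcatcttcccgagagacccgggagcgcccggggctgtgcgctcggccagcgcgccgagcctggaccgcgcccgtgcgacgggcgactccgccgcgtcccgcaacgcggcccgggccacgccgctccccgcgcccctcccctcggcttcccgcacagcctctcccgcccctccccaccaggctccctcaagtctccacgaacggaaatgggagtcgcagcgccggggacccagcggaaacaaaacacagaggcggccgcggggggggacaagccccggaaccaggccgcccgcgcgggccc
Sdhb: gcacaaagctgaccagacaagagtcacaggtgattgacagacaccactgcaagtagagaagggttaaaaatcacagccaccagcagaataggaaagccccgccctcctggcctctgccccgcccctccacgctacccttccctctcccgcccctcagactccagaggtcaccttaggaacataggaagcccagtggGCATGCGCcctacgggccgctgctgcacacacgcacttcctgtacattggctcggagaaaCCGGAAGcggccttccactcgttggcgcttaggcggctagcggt
Ndufs7: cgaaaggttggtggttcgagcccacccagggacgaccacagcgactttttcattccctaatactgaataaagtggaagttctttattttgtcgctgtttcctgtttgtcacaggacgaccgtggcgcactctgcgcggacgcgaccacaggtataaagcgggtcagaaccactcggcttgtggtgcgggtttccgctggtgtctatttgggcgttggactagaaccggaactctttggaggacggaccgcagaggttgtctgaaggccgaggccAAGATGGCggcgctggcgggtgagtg

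Many members start head to head with another gene, so that their values can be set beside those of a neighbour with which they share a promoter region. In the GENCODE models, 28 of 91 members had a tested protein-coding neighbour on the opposite strand whose start lay within 1000 bases. In 12 of the 28 pairs both log2 fold changes had the same sign, and this share was not computed for other head-to-head pairs. Ndufaf2 starts 108 bases from Ercc8, a DNA repair gene, which was 9.23 and 6.53 FPKM in WT and 7.08 and 7.63 FPKM in CD274-null LICs, with a log2 fold change of -0.07 against 0.76 for Ndufaf2. Atp5j and Gabpa overlap at their 5′ ends, over 397 exon bases of Atp5j (12.7%), and while Atp5j had 0.40 its neighbour had -0.71. Ndufaf8 at -0.22 stood beside Tepsin at 0.97, which was 9.77 and 14.5 FPKM in WT and 24.3 and 23.4 FPKM in CD274-null LICs. The library kit does not mark the strand, so reads in the overlap of Atp5j and Gabpa cannot be told apart. In all, exons of 31 members overlapped those of another gene in these models. For 3 of them, Ndufa13 (with Tssk6), Ndufb6 (with Smim27) and the longer GENCODE model of Ndufaf2 (with a noncoding gene beyond the RefSeq gene), 1 other gene covered more than 20% of the exon bases.

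**Figure D5:**
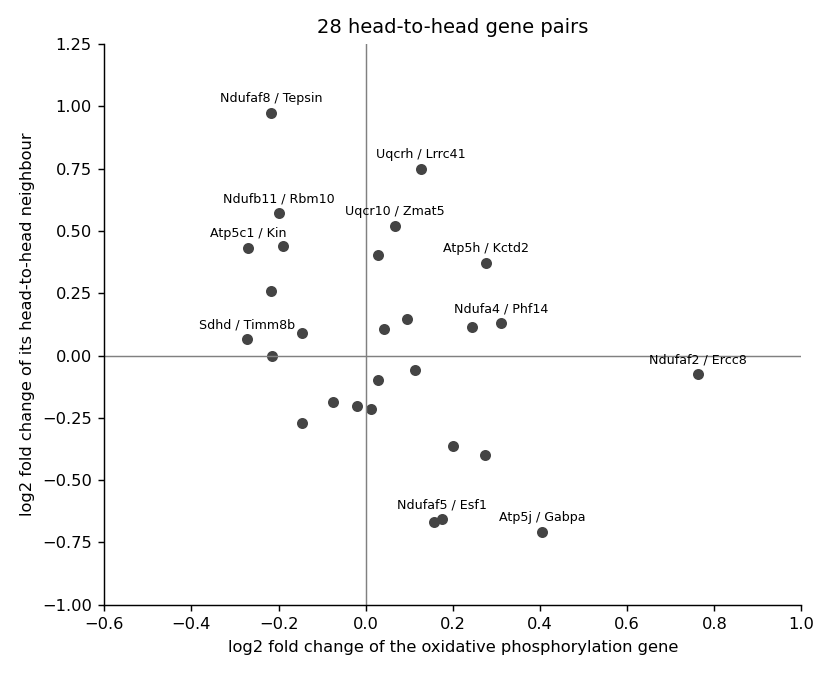
Log2 fold change of CD274-null over WT for 28 members (horizontal axis) and for their head-to-head neighbours (vertical axis), with some pairs named. The pairs scatter on all sides of 0, with Ndufaf2 and Ercc8 at 0.76 and -0.07 and Atp5j and Gabpa at 0.40 and -0.71.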

How the data were processed

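Libraries were made from total RNA by the authors with a TruSeq v2 kit, which does not mark the strand, and sequenced as 50-base reads on a HiSeq2500. Per the labels and the submitters' processing notes, reads were processed with CASAVA 1.8.2, aligned to GRCm38 with TopHat2 2.0.12 and deposited by the authors as FPKM values per gene in 1 table. The counting program and the gene lengths are not given in the sources used here.

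The 27179 genes were named by their NCBI gene numbers, and all 4 columns matched a labelled library. Whole reads and the relative depth of the libraries were recovered from the steps between low FPKM values, for 17083 of 17083 genes above 0 in 2 or more libraries. They were used for depth, read numbers and 1 alternative test. CD274-null and WT LICs were compared with limma 3.58.1 (R 4.3.3, trended variance, no covariates) on the log2 scale after adding 0.5 FPKM. The 13230 genes that averaged 0.5 FPKM or more were tested, with Benjamini-Hochberg adjustment over all of them. This scale understates the fold change of low genes. Candidates differed by more than 1.5-fold with a p below 0.01 before adjustment. On simulated data 78% of 2-fold and 99% of 4-fold changes passed this rule, with 100 genes changed by each among 13078. The simulated reads had the same fixed spread in every gene, and genes of the lowest levels were not among those changed. That spread was not matched to these libraries, so these shares need not hold for them. Coding stretches were aligned with bwa 0.7.19. Other values were computed with Python 3.11.15 and scipy 1.17.1.

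The members and gene lists were chosen with earlier results of these data known. By rule, the text names in each complex the highest gene and the genes with the most positive and most negative log2 fold change, the members on either side of the filter, the 4 Sdh genes, the tissue isoforms, and any member or listed pathway gene past the candidate rule. Other genes were named after their values were seen. Alternatives varied the pseudocount, the filter, the normalization, the variance model, GC and length corrections, a replicate block and the libraries used. The replicate numbers did not pair the libraries: deviations of libraries with the same number correlated at -0.02. Values of some genes are not reported here.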

Additional observations from a re-analysis of the deposited data

Results flagged for a closer look

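The 3 genes that matched the names but carried a pseudogene suffix were left out of the comparisons and still had values. Ndufs5-ps averaged 28.79 FPKM (28.01, 26.9, 28.7 and 31.5 FPKM in WT 1, WT 2, CD274-null 1 and CD274-null 2), above the 22.0 FPKM of Ndufs5 itself, whose whole coding sequence is shared with another locus. Uqcrh-ps1 averaged 28.18 FPKM against 159 FPKM for Uqcrh, and Atp5c1-ps averaged 13.56 FPKM against 112 FPKM for Atp5c1. Reads of these names and of the genes they copy were not told apart here.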

How the results depend on the processing

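No setting gave a member lower in CD274-null LICs past the candidate rule. The number higher was 0 in the reported fit and became 1 (Ndufaf2) with no moderation of the variances and with GC correction, where the log2 fold change of Ndufaf2 was 0.83. The mtDNA-encoded candidates went from 2 to 4 with a mean of at least 5 FPKM, to 5 with voom on recovered reads and with GC correction, and to 1 with no moderation and with length correction. The median of complex III moved from 0.05 to -0.17 with GC correction, and Cox7a2 turned from -0.071 to 0.040, both with and without a replicate block; the cause was not tested. Of 554 settings for single named genes 521 kept direction and side of the threshold. Polg passed the candidate rule in the reported fit but not with GC correction (limma unadjusted p = 0.014, and 0.019 with the block), without a variance trend (0.015) or without moderation (0.017). Quantile normalization (253 higher, 210 lower) and equal medians (247 and 200) changed the balance of candidates over all genes from 316 higher and 164 lower. Without moderation 119 and 51 were called, and 189 and 46 without CD274-null 1 and 117 and 30 without CD274-null 2. With the GC correction they were 195 and 122, and with a replicate block as well 149 and 104. The libraries shared only a number across groups (correlation -0.02), and the replicate block alone gave 334 and 192, a members' median of 0.05 and 0 candidates among the members.

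Leaving out single libraries gave 0 to 0 candidate members in each direction and 0 to 1 mtDNA-encoded candidates. Medians ran from -0.081 to 0.14 over the members, from -0.073 to 0.096 in complex I, from -0.069 to 0.25 in the assembly factors, from -0.36 to 0.025 in complex II, from -0.12 to 0.13 in complex III, from 0.032 to 0.26 in complex IV and from -0.075 to 0.23 in complex V, in each case lowest without CD274-null 1 and highest without CD274-null 2. The mtDNA-encoded median ran from 0.63 (without WT 1) to 1.24 (without WT 2). Members with both groups apart numbered 25 to 51 above and 14 to 45 below, as fewer libraries separate more easily. Sign changes occurred in Uqcrh (-0.0051 to 0.26), Cox7a2 (-0.15 to 0.012), Cox4i1 (-0.35 to 0.055), Sdhc (-0.24 to 0.11), Sdha (-0.15 to 0.37), Cox6a2 (-0.84 to 1.38), Cox6b1 (-0.19 to 0.064), Cox7a1 (-0.048 to 0.83) and Atp5g1 (-0.15 to 0.29). With 2 libraries a group, the intervals of 12 members reached past a 2-fold change.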
